A study of Mus musculus with 8 samples.

Results

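Microglia are the resident macrophages of the brain, and 32 genes that mark them were described in RNA-seq libraries of mouse hippocampus, a region needed for contextual fear memory. The genes were taken by symbol from a list of established microglia markers: 11 homeostatic genes, 3 complement genes, 8 genes of phagocytosis and 10 lineage and leukocyte genes. Of these, 31 were found among the 55188 genes of the tables, and all 31 were among the 16667 genes that passed the filter on low values (at least 0.5 FPKM in 2 animals). Irf8, a transcription factor of the myeloid lineage, is not analysed here. The libraries came from C57BL/6 mice before fear conditioning, from 2 mice labelled as knockouts of Pyk2 (KO1 and KO2) and from 2 wild-type mice (WT1 and WT2), with 2 technical replicates of each. Pyk2, the product of Ptk2b, is a tyrosine kinase that responds to calcium. All samples are described as transgenic mice, the wild type included, and the sources used here give neither age and sex nor the design of the knockout allele. Whether a number stands for 1 mouse or a pool is not stated by the labels. Each was taken as 1 animal (n = 2 per group), and p-values cover only the spread among these numbered samples, which may be technical. Levels are in FPKM, fragment numbers scaled by transcript length and library size.

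As background, microglia hold their resting state through signals from neighbouring cells. CSF1R, the receptor for CSF1 and IL-34, keeps them alive, TGF-beta keeps their homeostatic genes on, and CX3CR1 receives neuronal fractalkine. P2RY12, a receptor for ADP, steers their processes towards injury. They are the main source of C1q in the brain and remove synapses and debris with the help of complement and of TREM2, which signals through the adaptor TYROBP. In whole tissue, fewer microglia and less RNA per microglial cell cannot be told apart.

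The 8 libraries held 26482 to 27871 genes above 0, and the widths of the deposited confidence intervals imply 11.3 M to 14.1 M fragments per library, a rough figure. The targeted gene was not lower in the mice labelled KO. Ptk2b had 277, 279, 264 and 274 FPKM in the KO libraries, against 232, 232, 203 and 202 FPKM in the WT libraries (log2 fold change 0.34, SE 0.07, limma adjusted p = 0.158). A gene-wide value cannot show whether an exon or the protein is missing, so each direction below is that of the labels. Xist, a transcript of the inactive X chromosome, lay at 63.6 to 72.9 FPKM in every library.

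The microglia markers were detected in every library, and none differed between KO and WT by the adjusted test. Over all genes tested, 0.054% passed an adjusted p of 0.05 (9 genes, all lower in KO), against 0 of 31 markers. P2ry12 was the 1 marker at an unadjusted p under 0.05, a level that 15.5% of all genes reached. The mean of log2(FPKM + 1) was higher in KO for 23 of 31 markers, against 42% of all genes. It was higher for 25 and 26 of 31 under median-of-ratios scaling and quantile normalization. Counts of genes higher or lower in KO use this log2 mean throughout, which for C1qa differs in sign from the mean FPKM. The median log2 fold change of the markers was 0.076 (range -0.10 to 0.25), beside -0.022 over all genes. Without KO1 it was -0.0033, with 15 of 31 markers higher, so the sign of the median rested on that animal. The median over all genes was -0.012 in that setting. A tilt towards KO was not particular to microglia markers. In KO, 8 of 10 oligodendrocyte and 7 of 9 neuron markers were higher, with median log2 fold changes of 0.098 and 0.14. Astrocyte markers split into 5 higher and 5 lower, and endothelial markers into 1 higher and 9 lower. Both KO animals lay above both WT animals for 9 of 31 markers, against 18.4% of all genes, and below them for 0 of 31, against 30.7% of all genes. The 9 were P2ry12, Cx3cr1, Fcrls, Sall1, Selplg, Cd68, Csf1r, Cd53 and Inpp5d.

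**Figure D1:**
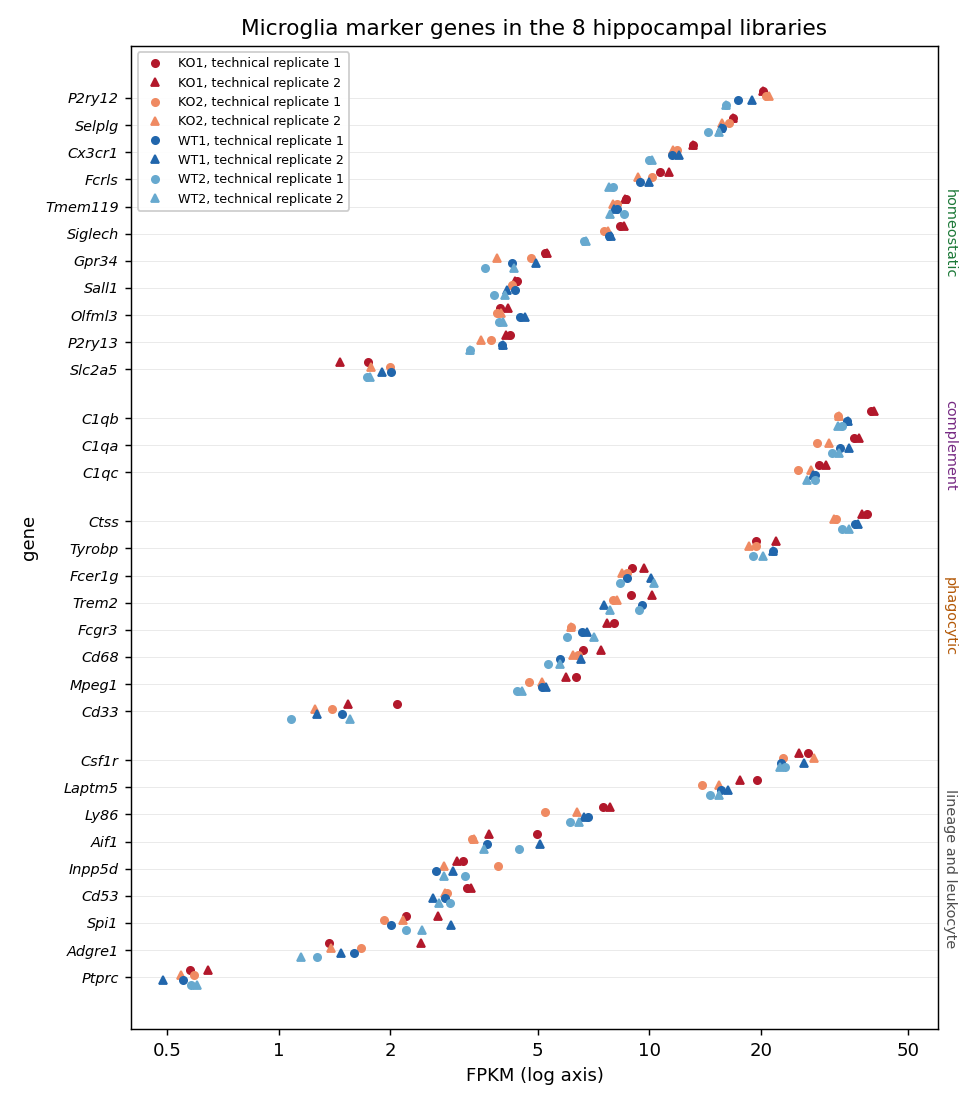
FPKM (log axis) of the 31 microglia markers in each library. Red points are the KO animals and blue points the WT animals, with circles and triangles for the technical replicates. Levels span 0.572 FPKM (Ptprc) to 35 FPKM (Ctss) as means of the 4 animals, and the red and blue points overlap for most genes.

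Summed over the 31 markers, the level was 372 FPKM in KO1 and 326 FPKM in KO2, against 343 FPKM in WT1 and 320 FPKM in WT2. The KO mean of 349 ± 32.5 FPKM and the WT mean of 332 ± 16.3 FPKM (SD, n = 2 each) differed by 5.2%, less than the gap between the 2 KO animals. The groups overlapped, since KO2 lay below WT1. The 4 classes took nearly the same share of the sum in each animal. Homeostatic genes made up 26.3% and 28.3% in KO1 and KO2, against 26.4% and 25.2% in WT1 and WT2. Complement genes made up 28.4% and 27% in KO1 and KO2, against 28% and 28.7% in WT1 and WT2. Levels per length ran from Ctss, C1qb and C1qa at 35, 34.9 and 32.8 FPKM down to Adgre1, Cd33 and Ptprc at 1.54, 1.46 and 0.572 FPKM as means of the 4 animals. The 3 genes at the top of that order were closer to each other than the KO animals were for any of them.

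Homeostatic genes mark undisturbed microglia. The log2 fold change was above 0 for 9 of 11, against 42% of all genes, and the class median was 0.098. Both KO animals lay above both WT animals for 5 of the 11, against 18.4% of all genes, and below them for 0 of the 11, against 30.7%. In either direction, the groups did not overlap for 5 of the 11 (45.5%), near the 49.1% of all genes. The class summed to 97.7 and 92.2 FPKM in KO1 and KO2, against 90.6 and 80.8 FPKM in WT1 and WT2. KO2 exceeded WT1 by less than WT1 exceeded WT2. WT2 was the lowest of the 4 animals for 8 of the 11 genes, against 22.4% of all genes, and without WT2 the class median was 0.039, below that of the lineage and leukocyte genes in the same setting (0.065).

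P2ry12 (ENSMUSG00000036353, chromosome 3, 59216272 to 59262871, minus strand, mm10) encodes the ADP receptor named above. It had 20.3, 20.3, 20.7 and 21.1 FPKM in the KO libraries, against 17.4, 18.9, 16.1 and 16.1 FPKM in the WT libraries. All 4 KO libraries stood above all 4 WT libraries, as did those of 7.11% of all genes. The means were 20.6 ± 0.424 FPKM in KO and 17.1 ± 1.42 FPKM in WT (SD, n = 2 each), 20.1% apart. The log2 fold change was 0.25 (SE 0.067, 95% interval 0.081 to 0.42), with a limma p of 0.013 before and 0.209 after adjustment over all genes. It passed in 1 alternative, a fit of all 8 libraries with the animal as a random effect (limma adjusted p = 0.0256). That fit takes technical replicates as observations, and 1086 of 16660 genes passed in it, against 9 in the main fit. In the other alternatives that kept every animal, the limma adjusted p of P2ry12 was 0.178 to 0.403. Exons of P2ry12 overlap those of Med12l, a Mediator subunit gene on the plus strand in which P2ry12 lies, and reads of the pair cannot be separated without strand. Med12l had 4.51 and 4.63 FPKM in KO1 and KO2, against 4.57 and 4.5 FPKM in WT1 and WT2.

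P2ry13, a related ADP receptor gene, starts 5389 bases from the end of P2ry12 and also lies within Med12l. It had 4.22, 4.1, 3.74 and 3.51 FPKM in the KO libraries, against 4, 4.03, 3.28 and 3.29 FPKM in the WT libraries. KO1 and WT1 were high and KO2 and WT2 were low, so the groups overlapped, with a log2 fold change of 0.076 (SE 0.11, limma adjusted p = 0.785). The sequences upstream of the RefSeq starts of these neighbours are shown because the pair is adjacent and had different patterns over the animals. Capitals mark GAGGAA, a short motif of the kind that PU.1, the myeloid transcription factor encoded by Spi1, can bind. Only these exact letters were counted. The P2ry12 window holds aaggaagt, a similar run that the search does not count, so the counts do not tell whether PU.1 can bind there. P2ry13 holds 1 match, its first base 48 bases before the start, and P2ry12 holds 0 (GRCm38.p6, chr3:59262986-59263235 for P2ry12 and chr3:59210883-59211132 for P2ry13, both minus strand, 250 bases each).
P2ry12: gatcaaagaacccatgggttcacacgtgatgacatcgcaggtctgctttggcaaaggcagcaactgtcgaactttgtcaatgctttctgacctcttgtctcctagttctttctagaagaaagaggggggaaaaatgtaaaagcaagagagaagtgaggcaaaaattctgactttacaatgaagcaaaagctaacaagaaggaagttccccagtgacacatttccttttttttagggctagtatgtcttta
P2ry13: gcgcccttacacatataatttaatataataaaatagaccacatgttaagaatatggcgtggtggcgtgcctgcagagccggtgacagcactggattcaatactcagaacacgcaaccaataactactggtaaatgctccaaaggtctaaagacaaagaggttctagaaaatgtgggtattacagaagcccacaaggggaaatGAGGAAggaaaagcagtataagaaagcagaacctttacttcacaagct

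Searched on both strands (GAGGAA or TTCCTC) in the whole RefSeq windows, which run from 250 bases before to 50 after a start, the motif was present in 59.3% of the 27 promoters of 23 markers and in 28.3% of 32851 mouse promoters. The longer GAGGAAGT, which contains GAGGAA, was present for C1qc, Cd53, Ctss and Inpp5d, 14.8% of the marker promoters against 3.2% of all. A match is a description of the letters in these windows, and no test was made.

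Selplg, which encodes the selectin ligand PSGL-1, was the other marker with all 4 KO libraries above all 4 WT libraries. It had 16.8, 16.8, 16.4 and 15.7 FPKM in the KO libraries, against 15.7, 15.6, 14.4 and 15.4 FPKM in the WT libraries, so the nearest libraries differed only beyond the third digit. Its log2 fold change was 0.098 (SE 0.052, limma adjusted p = 0.428). Cx3cr1, the fractalkine receptor gene (chromosome 9, 119901616 to 120069879, minus strand), had 13.1, 13.1, 11.9 and 11.6 FPKM in the KO libraries, against 11.5, 12, 9.98 and 10.2 FPKM in the WT libraries. KO1 was the highest and WT2 the lowest, while KO2 and WT1 were at 11.8 and 11.7 FPKM. The log2 fold change was 0.17 (SE 0.091, limma adjusted p = 0.424). Exons of the antisense RNA Gm33858 overlap Cx3cr1, at 0.0859 to 0.134 FPKM.

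Fcrls, an Fc receptor-like gene used as a marker of mouse microglia, had 10.7, 11.3, 10.2 and 9.32 FPKM in the KO libraries, against 9.45, 10, 8 and 7.81 FPKM in the WT libraries. The same order of animals returned, with KO2 and WT1 at 9.76 and 9.73 FPKM, and the log2 fold change of 0.22 (SE 0.11) did not pass (limma adjusted p = 0.413). Among the other homeostatic genes Siglech, a member of the family of sialic acid-binding lectins, averaged 8.04 ± 0.549 FPKM in KO and 7.27 ± 0.789 FPKM in WT. Gpr34, a receptor for lysophosphatidylserine, averaged 4.8 ± 0.648 FPKM in KO and 4.28 ± 0.457 FPKM in WT. For both, KO1 was the highest animal and WT2 the lowest.

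The membrane protein gene Tmem119 was nearly level, at 8.35 ± 0.411 FPKM in KO and 8.14 ± 0.0567 FPKM in WT, a log2 fold change of 0.033 (95% interval -0.12 to 0.19). Sall1, the transcription factor that maintains microglial identity, averaged 4.33 ± 0.0652 FPKM in KO and 4.08 ± 0.207 FPKM in WT. Olfml3, a secreted glycoprotein gene, had a lower mean in KO, 3.99 ± 0.0831 FPKM against 4.27 ± 0.413 FPKM in WT. Slc2a5, the fructose transporter GLUT5, averaged 1.74 ± 0.201 FPKM in KO and 1.85 ± 0.146 FPKM in WT. The sign of the difference in Olfml3 and Slc2a5 turned under quantile normalization, to log2 fold changes of 0.014 and 0.053.

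**Figure D2:**
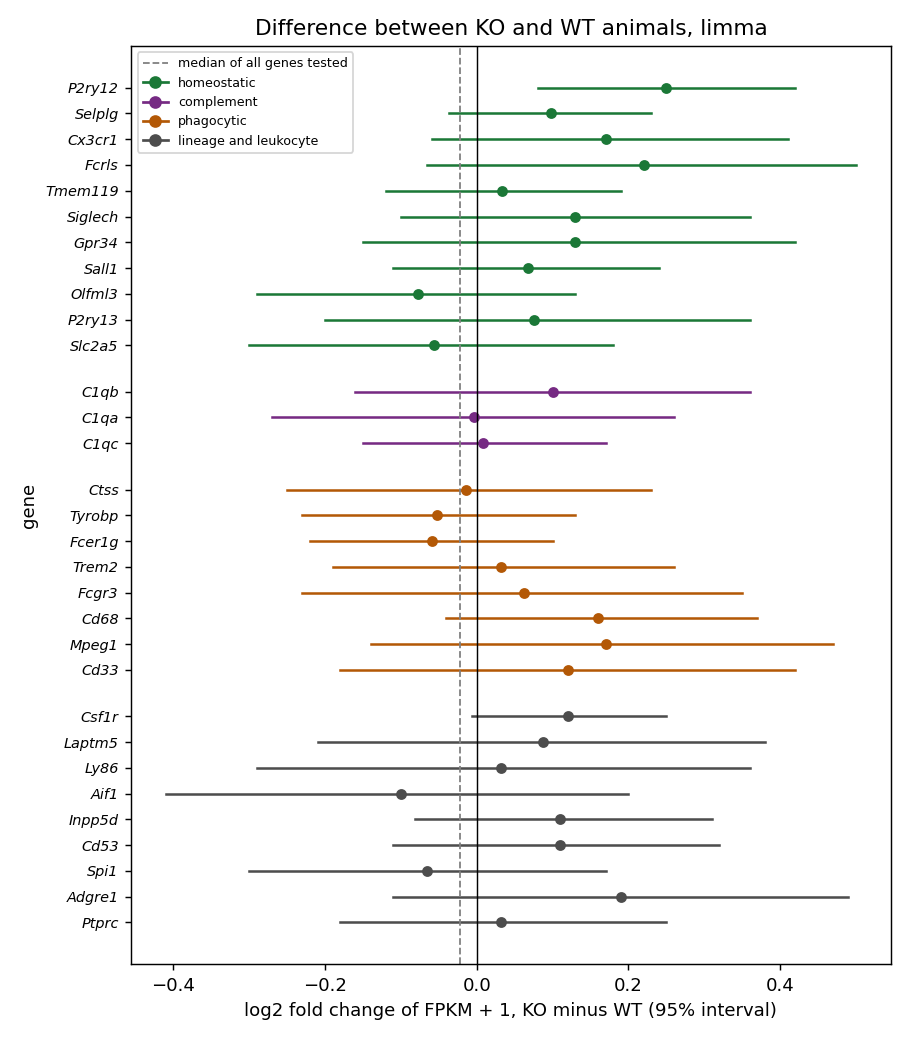
Log2 fold change of FPKM + 1, KO minus WT, for each marker with its 95% interval from limma, coloured by class and ordered by level within each class. The dashed line is the median of all genes tested (-0.022). The interval of P2ry12 (0.081 to 0.42) lies above 0, and the intervals of the other 30 markers include it.

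The complement genes C1qa, C1qb and C1qc encode the 3 chains of C1q, the molecule that starts the classical pathway and tags synapses, and they separated the KO animals more than the groups. The genes lie next to each other on chromosome 4, with 2851 bases between C1qa and C1qc and 3616 bases between C1qc and C1qb. C1qa (136895917 to 136898803, minus strand) had 35.8, 36.8, 28.3 and 30.5 FPKM in the KO libraries, against 32.8, 34.7, 31.1 and 32.6 FPKM in the WT libraries. C1qb (136880129 to 136886187, minus strand) had 39.7, 40.3, 32.3 and 32.6 FPKM in the KO libraries, against 34.2, 34.4, 33.2 and 32.3 FPKM in the WT libraries. C1qc (136889804 to 136893065, minus strand) had 28.8, 30, 25.2 and 27.4 FPKM in the KO libraries, against 28.1, 27.7, 28 and 26.7 FPKM in the WT libraries. For all 3 genes KO1 was the highest animal, KO2 the lowest, and both WT animals lay between them.

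The log2 fold changes of the complement genes were -0.0035 for C1qa (SE 0.10, limma adjusted p = 0.992), 0.10 for C1qb (SE 0.10, limma adjusted p = 0.682) and 0.0088 for C1qc (SE 0.063, limma adjusted p = 0.962). The value for C1qa turned to 0.027 under median-of-ratios scaling. The 95% intervals reached from -0.27 to 0.26 for C1qa and from -0.16 to 0.36 for C1qb, so differences within these ranges were compatible with the values. The intervals are not adjusted for the number of genes and do not give the size of change that the adjusted test could detect. The ratio of C1qb to C1qa was 1.1 in KO1 and 1.1 in KO2, against 1.02 in WT1 and 1.03 in WT2. It was 1 of 5 ratios looked at after the values were seen, of which 3 did not overlap between the groups, and in it the KO animals lay together although their C1q levels did not. The sequence upstream of C1qb, the complement gene with the largest difference, holds 1 GAGGAA (capitals), its first base 30 bases before the RefSeq start (GRCm38.p6, chr4:136886201-136886450, minus strand).
C1qb: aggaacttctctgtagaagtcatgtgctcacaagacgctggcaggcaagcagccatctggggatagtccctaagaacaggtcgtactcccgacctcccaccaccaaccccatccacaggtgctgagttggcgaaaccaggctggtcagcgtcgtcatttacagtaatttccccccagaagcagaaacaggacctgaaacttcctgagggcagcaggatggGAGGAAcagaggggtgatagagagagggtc

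Of the 8 genes of phagocytosis, 5 had a higher mean in KO, against 42% of all genes. The animals of the groups did not overlap for 1 of the 8, Cd68, against 49.1% of all genes. The median log2 fold change of the 8 was 0.047, and it was -0.086 without KO1 and -0.012 with technical replicate 2 of each animal alone. The class summed to 100 and 86.1 FPKM in KO1 and KO2, against 95.3 and 89.3 FPKM in WT1 and WT2, so both WT animals again lay between the KO animals. KO1 was above KO2 for all 8 genes. Ctss, the lysosomal protease cathepsin S (chromosome 3, 95526786 to 95556403, plus strand), had 38.6, 37.4, 31.9 and 31.6 FPKM in the KO libraries, against 35.9, 36.7, 33.1 and 34.7 FPKM in the WT libraries. Its log2 fold change of -0.014 (SE 0.094, limma adjusted p = 0.961) turned to 0.017 under median-of-ratios scaling.

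Tyrobp encodes the ITAM adaptor also called DAP12. It had 19.4, 22, 19.4 and 18.6 FPKM in the KO libraries, against 21.6, 21.6, 19 and 20.3 FPKM in the WT libraries (log2 fold change -0.052, SE 0.07, limma adjusted p = 0.766). The libraries of both groups interleaved. Trem2, the lipid receptor that signals through it (chromosome 17, 48346401 to 48354147, plus strand), had 8.91, 10.2, 7.96 and 8.18 FPKM in the KO libraries, against 9.58, 7.53, 9.38 and 7.84 FPKM in the WT libraries. Its technical replicates in both WT animals differed by more than the group means, and the log2 fold change was 0.032 (SE 0.087, limma adjusted p = 0.897). With technical replicate 1 of each animal alone it was -0.15.

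Fcer1g, the signalling chain shared by Fc receptors, had 8.99, 9.69, 8.69 and 8.42 FPKM in the KO libraries, against 8.69, 10.1, 8.32 and 10.3 FPKM in the WT libraries. The log2 fold change was -0.059 (SE 0.062, limma adjusted p = 0.696). Cd68, a lysosomal membrane protein of phagocytes, averaged 6.67 ± 0.474 FPKM in KO and 5.85 ± 0.424 FPKM in WT, a log2 fold change of 0.16 (SE 0.08, limma adjusted p = 0.4). Mpeg1, a pore-forming protein of the phagosome, averaged 5.56 ± 0.857 FPKM in KO and 4.83 ± 0.513 FPKM in WT. The low-affinity IgG receptor gene Fcgr3 averaged 6.99 ± 1.21 FPKM in KO and 6.61 ± 0.104 FPKM in WT. Cd33, an inhibitory sialic acid receptor, averaged 1.57 ± 0.348 FPKM in KO and 1.35 ± 0.0373 FPKM in WT. In Fcgr3 and Cd33 the KO animals differed from each other by more than the group means did.

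Lineage and leukocyte genes are also expressed by other macrophages and some blood cells. The mean was higher in KO for 7 of 9, against 42% of all genes, and the class median log2 fold change was 0.087. The class summed to 68 and 59.6 FPKM in KO1 and KO2, against 61.4 and 58.1 FPKM in WT1 and WT2. Without KO1 the median was 0.012. Csf1r (chromosome 18, 61100598 to 61132149, plus strand) had 26.8, 25.4, 23 and 27.9 FPKM in the KO libraries, against 22.7, 26.1, 23.2 and 22.5 FPKM in the WT libraries. The animal means were 26.1 and 25.5 FPKM in KO1 and KO2, against 24.4 and 22.9 FPKM in WT1 and WT2, although single libraries overlapped. The log2 fold change was 0.12 (SE 0.05, 95% interval -0.0062 to 0.25, limma adjusted p = 0.338). Exons of Csf1r overlap those of Hmgxb3 on the minus strand, which had 8.77 and 8.93 FPKM in KO1 and KO2, against 8.86 and 8.37 FPKM in WT1 and WT2.

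Laptm5, a lysosomal protein of leukocytes, had 19.5, 17.6, 13.9 and 15.4 FPKM in the KO libraries, against 15.6, 16.3, 14.6 and 15.4 FPKM in the WT libraries. Ly86, the MD-1 partner of the Toll-like receptor relative RP105, had 7.49, 7.85, 5.23 and 6.4 FPKM in the KO libraries, against 6.83, 6.66, 6.12 and 6.48 FPKM in the WT libraries. In both genes KO1 was high and KO2 low around the WT animals, as for C1q. Aif1 encodes IBA1, the usual histological stain for microglia. It had 4.98, 3.7, 3.33 and 3.37 FPKM in the KO libraries, against 3.64, 5.06, 4.46 and 3.59 FPKM in the WT libraries. Its log2 fold change of -0.10 (SE 0.12, limma adjusted p = 0.714) was the lowest of the 31, with a mean absolute log2 difference of 0.25 between technical replicates, beside 0.19 between animals of 1 group.

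Inpp5d, the lipid phosphatase SHIP1, averaged 3.22 ± 0.18 FPKM in KO and 2.9 ± 0.13 FPKM in WT. Cd53, a tetraspanin of leukocytes, averaged 3.05 ± 0.305 FPKM in KO and 2.76 ± 0.0668 FPKM in WT. Spi1, the gene of PU.1, averaged 2.25 ± 0.287 FPKM in KO and 2.39 ± 0.107 FPKM in WT, and its sign turned under quantile normalization (log2 fold change 0.041). Adgre1, the gene of the macrophage antigen F4/80, averaged 1.71 ± 0.259 FPKM in KO and 1.37 ± 0.228 FPKM in WT, the largest difference in percent (24.3%) at 1 of the lowest levels. Ptprc, the leukocyte antigen CD45, averaged 0.589 ± 0.0307 FPKM in KO and 0.555 ± 0.0501 FPKM in WT.

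Most markers had the same order of animals within each group. KO1 was above KO2 for 28 of 31 markers, against 42% of all genes, and WT1 above WT2 for 26 of 31, against 49% of all genes. KO1 was the highest of the 4 animals for 23 of 31, against 22.5% of all genes. The median absolute log2 difference was 0.072 between technical replicates of an animal, 0.13 between animals of 1 group and 0.087 between groups. Over all genes these medians were 0.079, 0.083 and 0.078. A difference between group means averages 2 animals on each side and tends to be smaller than one between single animals when the groups do not differ, so the last 2 values are not on an equal footing. The difference between animals exceeded that between technical replicates for 23 of 31 markers, against 51.5% of all genes. That between groups exceeded that between animals for 9 of 31, against 49.1% of all genes, which with 2 animals a group is the same count as that without overlap. The deposited 95% intervals reached to each side by 4.69% of the FPKM at the narrowest (C1qb) and 70.7% at the widest (Ptprc). The median log2 difference of KO1 minus KO2 was 0.29 for complement genes and 0.09 for homeostatic genes. That of WT1 minus WT2 was 0.065 for complement genes and 0.16 for homeostatic genes.

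**Figure D3:**
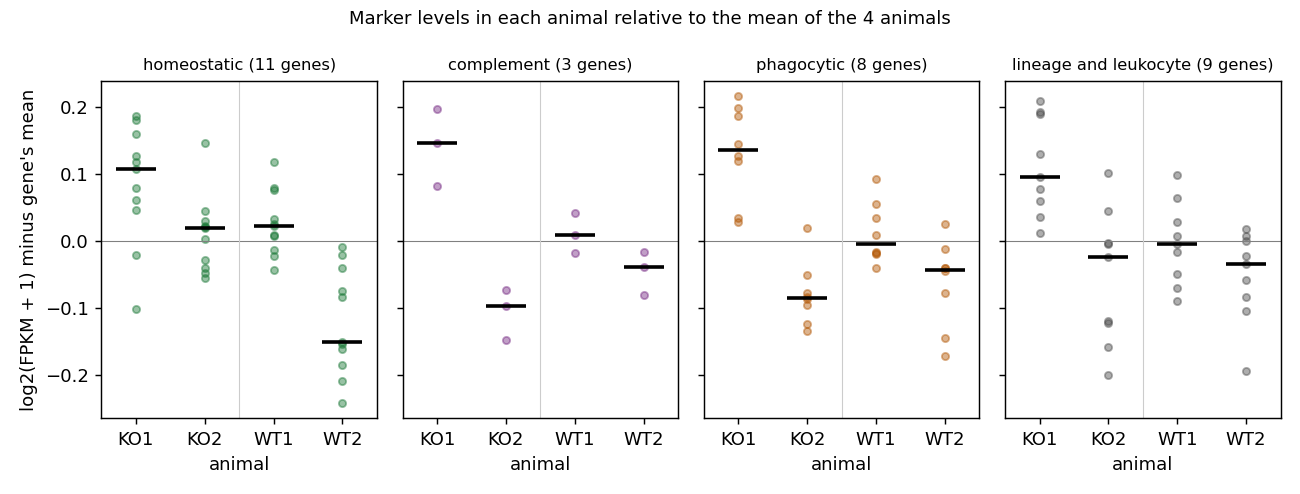
Log2(FPKM + 1) of each marker in each animal minus that gene's mean over the 4 animals, by class. Points are genes and bars are medians. The medians of the complement genes are 0.15 in KO1 and -0.096 in KO2, with WT1 and WT2 between, whereas among homeostatic genes WT2 is lowest at -0.15.

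With the animal's marker level taken out, by giving each marker relative to the mean log2 level of the other 30, P2ry12 stood at 1.27 and 1.47 in KO1 and KO2, against 1.21 and 1.14 in WT1 and WT2. Fcrls stood at 0.41 and 0.41 in KO1 and KO2, against 0.34 and 0.16 in WT1 and WT2. Aif1 stood at -0.80 and -0.94 in KO1 and KO2, against -0.69 in both WT animals. Tyrobp stood at 1.29 and 1.33 in KO1 and KO2, against 1.46 and 1.41 in WT1 and WT2. By this measure both KO animals lay above both WT animals for 5 of 31 markers and below them for 7, and the groups overlapped for the other 19. The FPKM levels themselves did not overlap for 49.1% of all genes, but no share of all genes was computed for this relative measure. It sets the markers against each other, so differences of both signs must occur. The genes given were picked from those without overlap. The FPKM ratio of P2ry12 to C1qa was 0.559 and 0.711 in KO1 and KO2, against 0.538 and 0.508 in WT1 and WT2. That of P2ry12 to Tmem119 was 2.35 and 2.59 in KO1 and KO2, against 2.24 and 1.97 in WT1 and WT2. The groups overlapped in the ratio of P2ry12 to P2ry13 (4.88 and 5.77 in KO1 and KO2, against 4.52 and 4.92 in WT1 and WT2) and in that of Trem2 to Tyrobp (0.463 and 0.425 in KO1 and KO2, against 0.396 and 0.439 in WT1 and WT2). These values carry no test, since the genes were looked at with their levels known.

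The genes that feed or follow these receptors were described next, and none passed the adjusted test. The share of all genes higher in KO, to be set beside the counts of each list, was 42%. Among 10 ligands of microglial receptors, 4 were higher and 6 lower in KO. Il34, a ligand of CSF1R, had 19.8 and 20.4 FPKM in KO1 and KO2, against 16.2 and 19.6 FPKM in WT1 and WT2. Csf1, its other ligand, had 6.32 and 6.81 FPKM in KO1 and KO2, against 7.2 and 6.54 FPKM in WT1 and WT2. The fractalkine gene Cx3cl1 had 196 and 169 FPKM in KO1 and KO2, against 166 and 155 FPKM in WT1 and WT2. Gas6, a bridge between dying cells and phagocyte receptors, had the smallest p of the ligands, at 28.3 and 33.1 FPKM in KO1 and KO2, against 41.9 and 50 FPKM in WT1 and WT2 (log2 fold change -0.57, SE 0.11, limma adjusted p = 0.136). Tgfb2, at -0.20, and Pros1, a relative of Gas6, at -0.19, had the next smallest p-values, as log2 fold changes.

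Downstream of TYROBP and the Fc receptors, 8 of 16 genes tested were higher and 8 lower, with a median log2 fold change of 0.0032. Inpp5d, Tyrobp and Fcer1g are on that list too and are described above. The adaptor gene Blnk had 1.96 and 2.02 FPKM in KO1 and KO2, against 1.65 and 1.49 FPKM in WT1 and WT2 (limma adjusted p = 0.294). The kinase gene Syk averaged 0.799 ± 0.0591 FPKM in KO and 0.634 ± 0.00962 FPKM in WT, and the exchange factor gene Vav1 averaged 1.07 ± 0.0288 FPKM in KO and 0.936 ± 0.00492 FPKM in WT. Their adjusted p-values in limma were 0.474 and 0.59.

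Among complement genes other than C1q, 3 were higher and 11 lower of 14 tested, and the median log2 fold change was -0.28. Of these, 8 were lower at an unadjusted p under 0.05, which 11.4% of all genes reached in that direction. Cd59a, an inhibitor of the membrane attack complex, had 2.15 and 3.35 FPKM in KO1 and KO2, against 8.48 and 10.3 FPKM in WT1 and WT2 (log2 fold change -1.48, SE 0.18, limma adjusted p = 0.0981). Serping1, the C1 inhibitor, had 3.06 and 2.77 FPKM in KO1 and KO2, against 4.48 and 4.67 FPKM in WT1 and WT2 (limma adjusted p = 0.0996). C1s1, a C1 protease, averaged 0.266 ± 0.0342 FPKM in KO and 0.608 ± 0.027 FPKM in WT (limma adjusted p = 0.186). The chains of complement receptor 3 pointed the other way, with log2 fold changes of 0.15 for Itgam and 0.12 for Itgb2. Cfd was listed at 0 in all libraries. Both KO animals also had lower levels of choroid plexus and meningeal markers, whose sums stand with the cell types.

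Of the genes that microglia switch on around damage, 16 of 18 tested had a lower mean in KO, as did 9674 of all 16667 genes. The median log2 fold change of the list was -0.18. Of the 18, 8 were lower at an unadjusted p under 0.05 in limma, against 11.4% of all genes. Lgals3, a galectin, averaged 0.881 ± 0.0112 FPKM in KO and 1.99 FPKM in both WT animals (log2 fold change -0.67, limma adjusted p = 0.0979). Cd63, a tetraspanin of late endosomes, averaged 40.3 ± 1.26 FPKM in KO and 62 ± 6.55 FPKM in WT, and Ctsd, the protease cathepsin D, averaged 134 ± 0.201 FPKM in KO and 174 ± 11.1 FPKM in WT. Their adjusted p-values in limma were 0.0981 and 0.0993. Among the genes of that list with the narrowest expression, Cst7, Clec7a and Itgax were at or under 0.209 FPKM in every animal. Many of the list, such as Apoe and Ctsd, are made by other brain cells too.

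Phagosome and lysosome genes were higher for 5 and lower for 13 of 18 tested, where 42% of all genes were higher. Of the 18, 7 were lower at an unadjusted p under 0.05 in limma, against 11.4% of all genes. Lamp2, a lysosomal membrane protein, averaged 25.6 ± 0.65 FPKM in KO and 38 ± 2.77 FPKM in WT, and Npc2, a lysosomal cholesterol carrier, averaged 14.6 ± 0.0979 FPKM in KO and 19.9 ± 1.15 FPKM in WT. Their adjusted p-values in limma were 0.0979 and 0.0993. A further 28 genes of resident microglia split into 13 higher and 15 lower, with a median log2 fold change of -0.00088. Ltc4s, the leukotriene C4 synthase, averaged 3.39 ± 0.0801 FPKM in KO and 12 ± 2.39 FPKM in WT (log2 fold change -1.56, SE 0.13, limma adjusted p = 0.0632). Of that list Tgfbr2, a TGF-beta receptor, and Itgb5, an integrin chain, had the next smallest p-values, with log2 fold changes of -0.35 and -0.23.

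Of 20 cytokine and sensor genes, 8 passed the filter, 2 higher and 6 lower in KO. The cytokine genes Tnf, Il1b and Il6 were at or under 0.153 FPKM in every animal. Nfkbia, the inhibitor of NF-kappa-B, averaged 14.3 ± 0.419 FPKM in KO and 17.2 ± 0.568 FPKM in WT (limma adjusted p = 0.147). Ptgs2, the cyclooxygenase gene that neurons also express, averaged 6.37 ± 0.354 FPKM in KO and 5.35 ± 0.307 FPKM in WT (limma adjusted p = 0.275), and Il18 had the next smallest p, with a log2 fold change of -0.15.

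**Figure D4:**
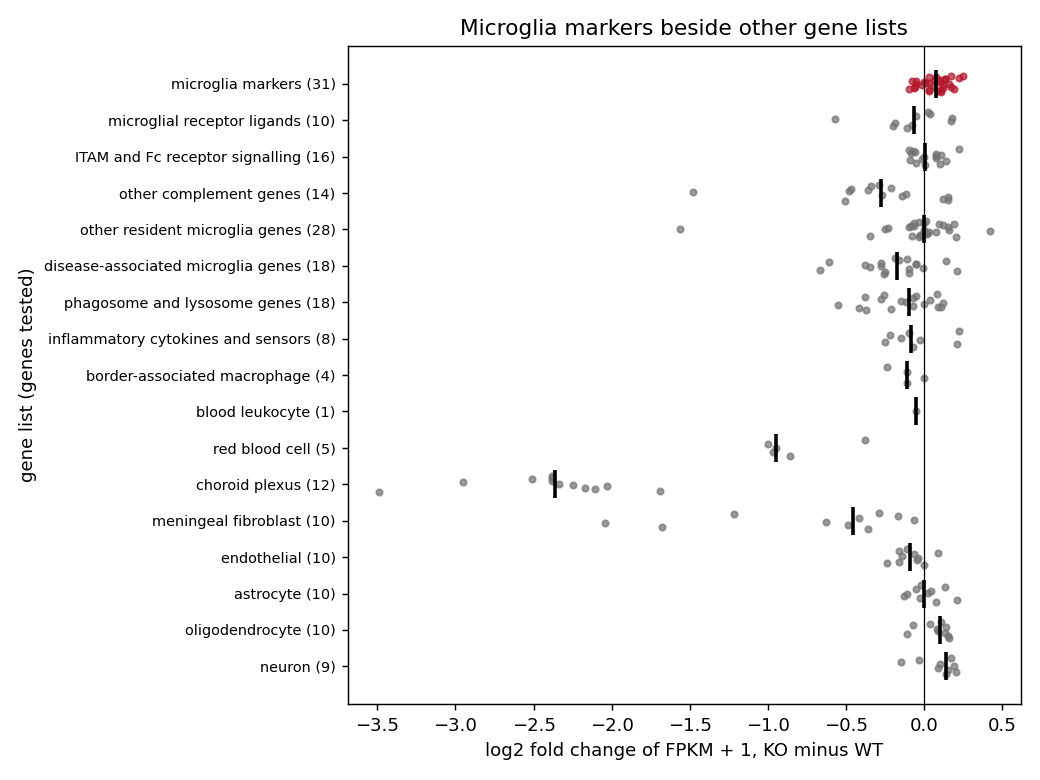
Log2 fold change of FPKM + 1, KO minus WT, for the tested genes of each list, with the number tested in parentheses and a bar at the median. The 31 microglia markers (red) lie between -0.10 and 0.25, and the choroid plexus genes have a median of -2.36.

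Markers of choroid plexus, meninges and blood had lower levels in KO, and Hba-a1 and Hba-a2, the near-identical adult alpha-globin genes between which reads may be divided uncertainly, passed the adjusted test. All 12 choroid plexus markers had a lower mean in KO with 0 past the test, and they summed to 288 and 1235 FPKM in KO1 and KO2, against 4229 and 7476 FPKM in WT1 and WT2. All 10 meningeal fibroblast markers tested had lower means as well (39.9 and 69.7 FPKM in KO1 and KO2, against 114 and 188 FPKM in WT1 and WT2), as were all 5 red blood cell genes (149 and 158 FPKM in KO1 and KO2, against 287 and 317 FPKM in WT1 and WT2). The part of these tissues in the levels of Cd59a, Ltc4s, Serping1, Cd63 and the other genes above was not tested. KO1 was the lowest animal for choroid plexus markers and the highest for most microglia markers.

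Other macrophages and blood leukocytes were at low levels. The 12 border-associated macrophage markers summed to 5.81 and 5.87 FPKM in KO1 and KO2, against 6.38 and 7.39 FPKM in WT1 and WT2, between 1.56% and 2.31% of the microglia marker sum of the same animal. The 16 blood leukocyte markers summed to 3.15 and 2.81 FPKM in KO1 and KO2, against 3.61 and 2.86 FPKM in WT1 and WT2, or 0.846% to 1.05%, with Camp at 0 in all libraries and Ly6c2 at 2.01 to 2.32 FPKM in the animals. Other glia had the same order of animals within a group as most microglia markers: all 10 oligodendrocyte markers were higher in KO1 than in KO2 and higher in WT1 than in WT2. Of the 10 astrocyte markers, 8 were higher in KO1 than in KO2 and 7 higher in WT1 than in WT2. Oligodendrocyte markers summed to 3353 and 2937 FPKM in KO1 and KO2, against 3030 and 2840 FPKM in WT1 and WT2. The part that the amount of other cell types in a sample had in the marker levels was not tested.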

How the data were processed

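RNA-seq of hippocampus from 2 KO and 2 WT animals was analysed, each with 2 technical replicates. The authors deposited FPKM per gene with confidence limits and a status, per the file headers. Genome mm10, Bowtie (version 1) and HISAT are named in the submitters' processing notes. Neither the program that computed FPKM nor a strand setting is given in the sources used here. No counts were used, so depth is known only roughly and precision comes from the deposited intervals and the animals.

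Values without status OK were treated as missing, rows repeating a gene were summed and technical replicates averaged. Values were tested as log2(FPKM + 1), which understates changes of low genes, with limma 3.58.1 in R 4.3.3 (trended variance, Benjamini-Hochberg adjustment over 16667 genes, threshold 0.05). An exact permutation of 2 against 2 animals cannot go below 0.333, and none is reported. The procedure was also run on simulated data with planted changes larger than those of any marker. That run does not measure its power for changes of marker size. Overlap of exons was read from GENCODE M21, and promoters came from RefSeq (GRCm38.p6).

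Members and gene lists were chosen with earlier results of these data known. Every library is given for the complement genes and for the 4 most abundant members of each other class. Pathway lists are represented by up to 3 genes of smallest p. Other genes named (P2ry13, Il34, Csf1, Cx3cl1, Itgam, Itgb2, Apoe, Cst7, Clec7a, Itgax, Tnf, Il1b, Il6) were picked with their values known. Results for 1 gene of the pathway lists are not reported here, and it stays in the counts of its lists.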

Additional observations from a re-analysis of the deposited data

How the results depend on the processing

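Over all genes, 9 passed the threshold. The number was 14 with a pseudocount of 0.1, 0 with no filter (3741 genes at an unadjusted p under 0.05 in limma), 19 and 35 with technical replicate 1 or 2 alone, 1086 with all 8 libraries and the animal as a random effect, 1 with no mean-variance trend, 175 at an adjusted p under 0.1, and 20 without the first library of KO1, an alternative chosen after seeing the data. With the animal number as a replicate block it was 184. The labels do not pair the animals, and deviations of WT1 and KO1 from their group means correlated at 0.107 over genes. With 1 animal left out it ranged from 0 (without WT1, with 1631 genes at an unadjusted p under 0.05 in limma, or without WT2, with 1327) to 128 (without KO2). The number of microglia markers that passed was 0 in each setting run except the random-effect fit, where it was 1 (P2ry12).

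With 1 animal left out, the lone animal of a group being assumed to vary like the others, the median log2 fold change ranged from -0.0033 to 0.14 over all markers, 0.039 to 0.19 for homeostatic, -0.07 to 0.14 for complement, -0.086 to 0.18 for phagocytic and 0.012 to 0.14 for lineage and leukocyte genes. In each case the lowest value came without KO1 except for homeostatic genes, where it came without WT2. The difference in summed FPKM ranged from -1.72% to 12.1%, and it was not recomputed for settings that do not enter a sum (pseudocount, filter, variance model and block). The complement median turned to -0.0026 with technical replicate 1 alone, and the phagocytic median to -0.012 with technical replicate 2 alone. Of 340 fold changes of single markers in the other settings, 323 kept direction and side of the threshold and 16 turned sign. Settings that change only the filter, the variance trend or the block leave a fold change as it is. The random-effect fit hardly moves it. Such rows could not or could hardly turn sign, so the count overstates how stable the directions were. With 1 animal left out, 23 turned sign and 101 did not.

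Values that turned sign under scaling were Olfml3 0.014, Slc2a5 0.053, Spi1 0.041 and Ly6c2 0.05 (quantile normalization) and C1qa 0.027 and Ctss 0.017 (median-of-ratios). With technical replicate 1 alone they were Slc2a5 0.0016, C1qc -0.055, Trem2 -0.15, Ctss 0.024, Fcer1g 0.05, Aif1 0.017 and Ly86 -0.038, and with technical replicate 2 alone Gpr34 -0.02, Cd33 -0.012 and Fcgr3 -0.011. Leaving out the first library of KO1 gave 0.0059 for C1qa. With 1 animal left out, the fold changes that turned sign in some case ranged for P2ry13 from -0.038 to 0.19, Tmem119 -0.012 to 0.078, Olfml3 -0.16 to 0.0031, Slc2a5 -0.13 to 0.019, C1qa -0.15 to 0.14, C1qb -0.046 to 0.25, C1qc -0.07 to 0.087, Trem2 -0.079 to 0.14, Tyrobp -0.12 to 0.015, Ctss -0.14 to 0.11, Cd33 -0.018 to 0.26, Fcgr3 -0.093 to 0.22, Spi1 -0.16 to 0.026, Aif1 -0.25 to 0.044, Ptprc -0.00094 to 0.065, Laptm5 -0.078 to 0.25, Ly86 -0.14 to 0.21 and Ly6c2 -0.12 to 0.01. The causes were not tested. Abundant markers differed in where their spread lay. The mean absolute log2 difference of C1qb was 0.021 between technical replicates and 0.18 between animals of 1 group. For Csf1r these values were 0.14 and 0.063. How far depth and the design of 2 animals a group each limit these comparisons was not tested.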
